A study of Mus musculus with 12 samples.

Results

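The phospholipases A2 of the epidermis, the acyltransferase that makes platelet-activating factor (PAF) and the PAF receptor were followed in epidermal scrapings of mice with and without a Pparg deletion in keratinocytes. The genes were chosen by name, with earlier results of these data known. The 10 named were Pla2g2e, Pla2g2f, Pla2g3, Pla2g4a, Pla2g4b, Pla2g4d, Pla2g4e, Pla2g4f, Ptafr and Lpcat2. The deposited count table listed 14533 genes, and 8 of the 10 were among them. Pla2g4b and Pla2g4d had no row there and were not analysed here. One library was made from each of 12 mice. All mice were C57BL/6 and carried floxed Pparg on both alleles. The 6 WT mice lacked the Cre transgene, and the 6 Pparg-/-epi mice had a single copy of Cre under the cytokeratin 14 promoter, which is active in basal keratinocytes of the interfollicular epidermis and the hair follicle. Neither group was treated, and the skin was non-lesional dorsal skin. The WT mice were 8 to 13 weeks old (3 males and 3 females) and the Pparg-/-epi mice 8 to 13 weeks old (2 males and 4 females). These are the ages in the sample labels, and the supplement gives other ages for WT mouse 2 and Pparg-/-epi mouse 10, so that the fit with age as a covariate carries that doubt. WT mice are numbered 1 to 6 and Pparg-/-epi mice 7 to 12. WT mice 3, 4, 5 and 6 carried the breeding number 226, and no Pparg-/-epi mouse did, so that genotype and breeding number were largely aligned.

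Phospholipases A2 cut the fatty acid from the central position of membrane phospholipids. The products are a free fatty acid, often arachidonate, and a lysophospholipid. The cytosolic group IV enzymes work inside the cell, whereas the secreted enzymes of groups II and III act on membranes and lipids outside it. When the phospholipid has an ether-linked chain, the lysophospholipid left behind can be lyso-PAF, which LPCAT2 acetylates to PAF. PAF signals through the G protein-coupled receptor encoded by Ptafr, and keratinocytes are known both to make PAF and to respond to it.

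Of the 8 listed members, 3 were altered in Pparg-/-epi mice, 1 higher and 2 lower, against 10.3% of all 14533 genes (edgeR quasi-likelihood test, altered meaning a log2 fold change of at least 0.6 in either direction with a Benjamini-Hochberg adjusted p under 0.05 over all genes). Pla2g4e was 7.37-fold higher in Pparg-/-epi mice, and Pla2g4a and Pla2g3 were lower, at 0.65 and 0.545 times the WT level. Pla2g2f, Pla2g2e, Pla2g4f, Ptafr and Lpcat2 were not altered. Among all genes, 5.19% were altered and higher and 5.08% altered and lower. The groups did not overlap for 2 members, Pla2g4e and Pla2g4a, and they did not overlap for 7.9% of all genes. The median log2 fold change of the 8 members was -0.21, and that of all genes was -0.01. The members and the related lists below were chosen with earlier results of these data known. Their shares therefore describe these genes and cannot show an excess over all genes. The count of 3 altered members was 1 without WT mouse 3 and 1 without WT mouse 4, with Pla2g4e the member left in both. It was 2 without WT mouse 6 or Pparg-/-epi mouse 7, 8, 9 or 12, and 3 without any other single mouse. Without WT mice 1 and 2, which stood apart for several members, it was 3, against 20.4% of all genes.

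Pla2g4e and Pla2g4f encode cytosolic phospholipases of a cluster on the minus strand of chromosome 2, where Pla2g4d, which had no row in the table, lies between them, and Pla2g4a lies on chromosome 1. The 250 bases before the transcription start of these 3 genes (RefSeq, GRCm38.p6, written in the direction of transcription) are shown because Pla2g4e was the member that rose, Pla2g4f is the nearest listed gene of the cluster, and Pla2g4a is the cytosolic enzyme that fell. The windows are chr2:120245336-120245585 for Pla2g4e, chr2:120314166-120314415 for Pla2g4f and chr1:149961291-149961540 for Pla2g4a, and the last base of each line is the base next to the start site.
Pla2g4e: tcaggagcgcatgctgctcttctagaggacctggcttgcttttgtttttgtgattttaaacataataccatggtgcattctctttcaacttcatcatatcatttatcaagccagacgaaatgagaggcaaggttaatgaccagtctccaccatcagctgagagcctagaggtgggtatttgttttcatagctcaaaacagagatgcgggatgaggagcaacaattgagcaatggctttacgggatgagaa
Pla2g4f: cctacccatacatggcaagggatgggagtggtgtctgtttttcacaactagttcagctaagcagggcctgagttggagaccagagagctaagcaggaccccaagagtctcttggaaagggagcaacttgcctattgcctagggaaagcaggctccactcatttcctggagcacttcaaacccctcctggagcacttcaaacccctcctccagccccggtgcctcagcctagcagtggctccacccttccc
Pla2g4a: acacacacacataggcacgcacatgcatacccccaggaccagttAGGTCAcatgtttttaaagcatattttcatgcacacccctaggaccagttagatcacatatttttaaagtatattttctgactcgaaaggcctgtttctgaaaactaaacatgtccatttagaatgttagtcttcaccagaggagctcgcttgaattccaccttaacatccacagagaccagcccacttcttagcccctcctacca
Capitals mark the nuclear receptor half-site AGGTCA, which of these 3 windows was found in that of Pla2g4a, 206 bases before the start. It also stood 194 bases before the start of Pla2g2e and, on the opposite strand, 54 bases before that of Pla2g4d. Pla2g4a has a further RefSeq start at base 149922439, whose window held no AGGTCA and held TATAAA on the opposite strand, 200 bases before the start. The letter patterns searched on both strands were AGGTCA, the AP-1 site TGACTCA, the STAT site TTCNNNGAA, the TATA box TATAAA, the CCAAT box CCAAT and the E-box CACGTG. The Pla2g4e and Pla2g4f windows held none of them. Of 32851 windows of this length over all genes, 14.0% held AGGTCA, 4.46% TGACTCA, 7.02% TTCNNNGAA, 12.4% TATAAA, 33.8% CCAAT and 6.02% CACGTG. These matches describe letters and not bound sites.

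The scrapings were first checked as tissue. The keratins of the basal layer (Krt5, Krt14) and of the suprabasal layers (Krt1, Krt10) were abundant in every library, from 760 CPM for Krt1 in WT mouse 2 to 24286 CPM for Krt10 in the highest Pparg-/-epi mouse (CPM, read counts scaled to a common TMM-normalised library total). Krt14 was 1.97-fold higher in Pparg-/-epi mice (adjusted p = 0.00559), and the 6 Pparg-/-epi mice were all above the 6 WT mice. The basal markers did not move together, as of the 6 listed 1 was higher (Krt14) and 1 lower, with a list median of -0.12. The lower one was Krt15, a keratin of basal and follicle bulge cells named after its values were seen, at -1.74 (SE 0.26, adjusted p = 0.00106) with no overlap. Pparg counts, summed over the whole gene, ran from 5 to 269 in the WT group and from 16 to 107 in the Pparg-/-epi group. Its log2 fold change was -0.10 (SE 0.71, adjusted p = 0.949). Cre removes 2 exons and leaves a shortened transcript, so that these counts do not check the genotype. The scrapings also held RNA of other cells, and the libraries differed in how much. WT mouse 2 had the lowest summed suprabasal keratinocyte markers of all mice (14934 CPM, against 35176 to 44227 CPM in the other WT mice), and fibroblast markers were highest in WT mouse 1 (34533 CPM). Skeletal muscle markers reached 9700 CPM in WT mouse 5. In such bulk samples, fewer cells of a type and less RNA per cell cannot be told apart.

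**Figure D1:**
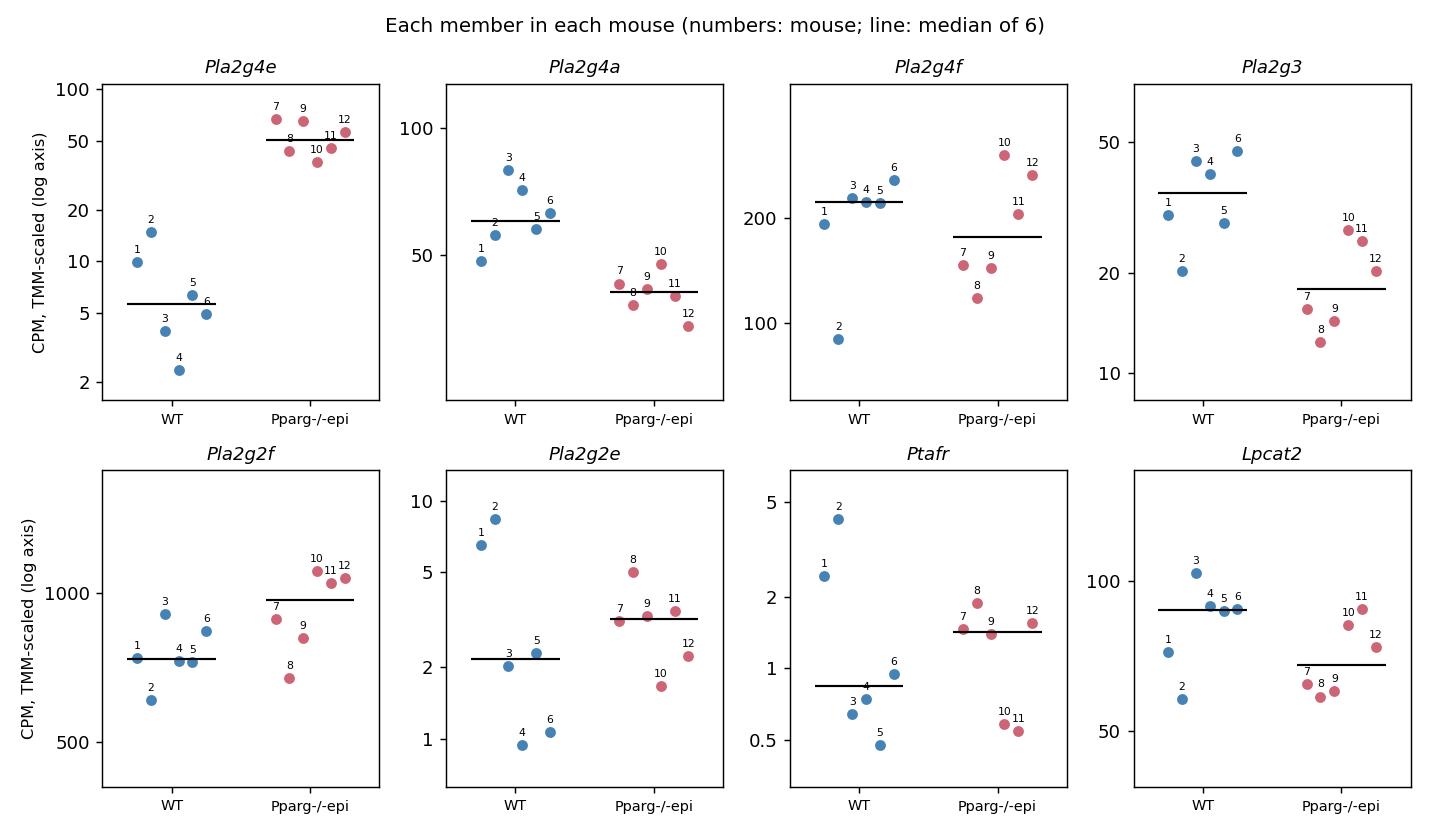
Level of each of the 8 listed members in each mouse, in CPM on a log axis, with 6 WT mice (numbered 1 to 6) and 6 Pparg-/-epi mice (numbered 7 to 12) and a line at the median of each group. Pla2g4e and Pla2g4a show no overlap between the groups, and WT mice 1 and 2 are the highest of all mice for Pla2g2e and Ptafr.

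Pla2g4e (chr2:120166412-120245335, minus strand, mm10, 4477 exonic bases in 20 exon intervals) encodes cytosolic phospholipase A2 epsilon, known as a calcium-dependent N-acyltransferase that makes N-acyl-phosphatidylethanolamines, the precursors of N-acylethanolamines. In WT mice its lowest, median and highest levels were 2.35, 5.69 and 14.8 CPM. In Pparg-/-epi mice they were 37.9, 50.9 and 67.2 CPM. Each Pparg-/-epi mouse was therefore above each WT mouse. The means were 7.07 ± 4.59 CPM for WT and 52.6 ± 12.0 CPM for Pparg-/-epi mice (SD, n = 6 each). In counts these levels were 35 to 279 (WT) and 456 to 1292 (Pparg-/-epi). The log2 fold change was 2.88 (SE 0.38, edgeR quasi-likelihood test, adjusted p = 0.0005), which placed Pla2g4e at rank 45 among the 754 higher genes. WT varied more than Pparg-/-epi, with a 6.29-fold range among WT mice and a 1.77-fold range among Pparg-/-epi mice. The highest WT mice were mice 1 and 2, the only WT mice outside breeding number 226. Without both of them the log2 fold change was 3.55. By the labels these 2 mice were also the youngest WT mice, at 8 and 9 weeks against 12 or 13. Their RIN, the RNA integrity number, was the highest in WT, at 7.4 and 8.6 against 5.9 to 7.1. Breeding number, age and RIN cannot be told apart for them. The annotation gave Pla2g4e little sequence in common with other genes, as 1.15% of its 75-base stretches also occurred in transcripts of Gm13997.

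Mast cell markers and part of the neutrophil markers were also higher in Pparg-/-epi mice. All 6 listed mast cell and basophil markers were altered and higher, and their summed level was 20.0 to 95.3 CPM in the WT libraries and 136 to 246 CPM in the others. Of 5 listed neutrophil markers, 3 were higher and 1 lower, with a sum of 22.8 to 49.97 CPM (WT) and 52.6 to 67.1 CPM (Pparg-/-epi). Sebocyte markers were lower (6 of 8 listed, with sums of 34.4 to 1083 CPM for WT and 13.2 to 32.6 CPM for Pparg-/-epi mice). Of all marker lists summed, these 3 were the only ones in which the groups of libraries did not overlap, and they are shown here for that. Pla2g4e and Pla2g4a did not overlap either, a likeness that follows from this choice of lists. Tpsab1 and Mcpt8 of the mast cell list, Ly6g, Retnlg and Trem1 of the neutrophil list and Mc5r and Mogat1 of the sebocyte list had no row in the table. The part of these cells in the levels of the members was not tested.

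Pla2g4a (chr1:149829619-149961290, minus strand, 3051 exonic bases) encodes cytosolic phospholipase A2 alpha, the enzyme best known for releasing arachidonate on a calcium signal. Its lowest, median and highest levels were 48.4, 60.4 and 79.8 CPM in WT mice. The Pparg-/-epi levels were 34.0, 40.8 and 47.6 CPM. The highest Pparg-/-epi mouse lay just under the lowest WT mouse, with a gap smaller than the spread within either group. The means were 62.7 ± 11.4 CPM for WT and 40.7 ± 4.56 CPM for Pparg-/-epi mice (SD, n = 6 each). This corresponds to a log2 fold change of -0.62 (SE 0.12, edgeR quasi-likelihood test, adjusted p = 0.00521), close to the fold threshold of 0.6. It fell short of that threshold, with its adjusted p still under 0.05, without WT mouse 3 (-0.54, adjusted p = 0.00954), WT mouse 4 (-0.58, adjusted p = 0.0148) or Pparg-/-epi mouse 12 (-0.58, adjusted p = 0.0120). The same held with breeding numbers as 2 blocks (-0.57, adjusted p = 0.0166). The blocks were 192, 195 and 217 against all others, so that this fit did not separate breeding number 226 from genotype. The threshold was also missed with RIN as a covariate (-0.59, adjusted p = 0.0109). The median RIN was 6.65 in WT and 7.7 in Pparg-/-epi mice.

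Pla2g4f (chr2:120299957-120314165, minus strand, 3125 exonic bases) encodes cytosolic phospholipase A2 zeta. Its lowest, median and highest levels were 90.0, 222 and 257 CPM among WT and 118, 176 and 304 CPM among Pparg-/-epi animals. The groups overlapped over most of their range. WT mouse 2 was the lowest of all mice, and Pparg-/-epi mice 7, 8 and 9 formed a lower set than mice 10, 11 and 12. Between genotypes the log2 fold change was -0.03 (SE 0.27, adjusted p = 0.954), and its sign changed when single mice were left out (-0.20 to 0.06). Pla2g4f was thus not altered, in a cluster where Pla2g4e rose and Pla2g4d had no row in the filtered table. Per exonic length, Pla2g4e amounted to a median of 1.68% of Pla2g4f in WT mice (0.737% to 11.5%) and 20.7% in Pparg-/-epi mice (8.71% to 31.98%). These shares are unaffected by library scaling. The log2 ratio of both genes differed between genotypes by 3.16 (exact permutation test, two-sided, p = 0.00433, n = 6 each), a pair chosen after their values were seen. As Pla2g4e was already called and Pla2g4f was not altered, this p restates the Pla2g4e difference and adds no separate evidence. WT mouse 2 alone had a share inside the Pparg-/-epi range.

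The listed genes on either side of the pair were not altered. Ehd4, an endocytic recycling gene that ends 11.8 kb before Pla2g4e, had a log2 fold change of 0.16 (SE 0.13, adjusted p = 0.464). Vps39, a subunit of a lysosomal tethering complex that begins 2.3 kb after Pla2g4f, had one of -0.12 (SE 0.08, adjusted p = 0.315). Both neighbours were named after their values were seen. No listed gene overlapped an exon of any of the 8 members, so that counts were not shared with an overlapping listed gene.

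**Figure D2:**
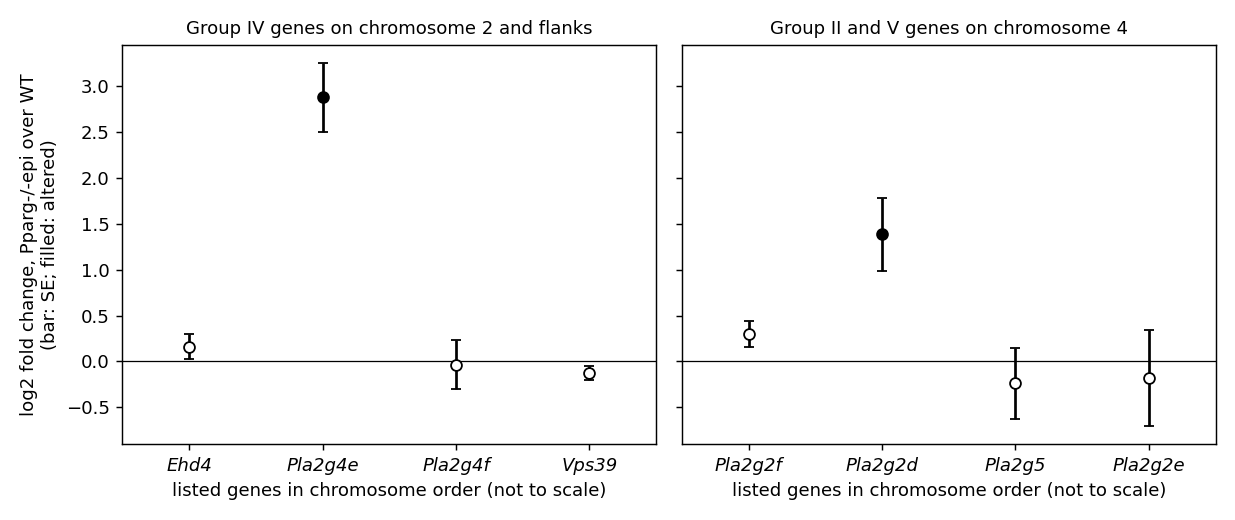
Log2 fold change of Pparg-/-epi over WT (points, bars are the SE, filled where altered, n = 6 mice each) for listed genes in chromosome order, not to scale, around the 2 listed group IV genes on chromosome 2 and in the group II and V cluster on chromosome 4. Pla2g4e is at 2.88 and Pla2g4f at -0.03, and Pla2g2d is at 1.38 and Pla2g2f at 0.30.

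Among the secreted enzymes, Pla2g2f (chr4:138750533-138757598, minus strand, 2437 exonic bases) is known as the main one of suprabasal keratinocytes and prefers ether-linked phospholipids. Its lowest, median and highest levels were 608, 734 and 905 CPM among WT and 672, 967 and 1106 CPM among Pparg-/-epi animals. Of the Pparg-/-epi mice, 3 were above the highest WT mouse and the others lay inside the WT range. This gave a log2 fold change of 0.30 (SE 0.14, adjusted p = 0.179). With RIN as a covariate it was 0.40 (adjusted p = 0.0414), still under the fold threshold. Within each group the lowest mouse was also the one with the lowest summed suprabasal keratinocyte markers, WT mouse 2 and Pparg-/-epi mouse 8 (14934 and 22814 CPM). The same mice were the lowest of their groups for Pla2g4f, Pla2g3 and Lpcat2.

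Pla2g3 (chr11:3488227-3494166, plus strand, 2623 exonic bases) encodes the group III secreted enzyme, a relative of the bee venom phospholipase. In WT mice its lowest, median and highest levels were 20.3, 35.1 and 47.1 CPM. In Pparg-/-epi mice they were 12.4, 18.0 and 27.0 CPM. All 6 Pparg-/-epi mice were below the WT median, but only 3 were below the lowest WT mouse. The means were 34.99 ± 10.4 CPM for WT and 19.1 ± 6.01 CPM for Pparg-/-epi mice (SD, n = 6 each). The log2 fold change was -0.87 (SE 0.24, edgeR quasi-likelihood test, adjusted p = 0.0279). It kept its direction but lost the call without any 1 of 6 mice, namely WT mouse 3, 4 or 6 or Pparg-/-epi mouse 7, 8 or 9, and over all 12 such fits it ranged from -1.01 to -0.77 with adjusted p from 0.00675 to 0.0644.

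Pla2g2e (chr4:138877942-138882814, plus strand, 851 exonic bases), a secreted enzyme known from mouse hair follicles, was low and uneven. Its lowest, median and highest levels were 0.941, 2.16 and 8.38 CPM among WT and 1.66, 3.20 and 5.03 CPM among Pparg-/-epi animals. WT mice 1 and 2 were the highest of all mice, and the other 4 WT mice were below most of the Pparg-/-epi mice. With all mice the log2 fold change was -0.18 (SE 0.52, adjusted p = 0.855). Without WT mice 1 and 2 it was 0.99 (adjusted p = 0.0670), without WT mouse 1 alone 0.06 and without WT mouse 2 alone 0.27, so that its direction changed with either mouse. Hair follicle and hair shaft markers, all 15 of them listed, summed to 29.7 CPM in WT mouse 1, the lowest of all mice, and to 2253 CPM in WT mouse 2, the highest of the WT mice. Other sums were highest among WT in mice 1 and 2, as Pla2g2e was, with sebocyte markers at 629 and 1083 CPM, macrophage markers at 417 and 833 CPM and endothelial markers at 61.8 and 109 CPM. Their part in the Pla2g2e level was not tested.

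Among listed genes, Pla2g2d and Pla2g5 lie between Pla2g2f and Pla2g2e on chromosome 4. Pla2g2a and Pla2g2c of group II had no row in the table. Pla2g2d, an enzyme known from dendritic cells of lymphoid tissue, was altered and higher, with a log2 fold change of 1.38 (SE 0.39, adjusted p = 0.0325). Its levels were 1.32 to 11.0 CPM for WT and 9.40 to 13.8 CPM for Pparg-/-epi mice. Pla2g5, named here after its values were seen, had a log2 fold change of -0.24 (SE 0.39, adjusted p = 0.733).

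Lpcat2 (chr8:92855350-92919279, plus strand, 2800 exonic bases), the gene for the acetyltransferase of PAF synthesis by remodelling, had lowest, median and highest levels of 58.1, 87.4 and 104 CPM among WT and 58.7, 67.9 and 87.6 CPM among Pparg-/-epi animals. The groups overlapped, and 5 of 6 Pparg-/-epi mice were below the WT median. Its log2 fold change was -0.23 (SE 0.15, adjusted p = 0.320). Without WT mice 1 and 2 it was -0.40 (adjusted p = 0.0357), under the fold threshold.

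Ptafr (chr4:132564067-132580866, plus strand, 1820 exonic bases), the receptor, was the least abundant member, with 6 to 80 counts per WT library and 6 to 31 per Pparg-/-epi library. Its lowest, median and highest levels were 0.474, 0.842 and 4.25 CPM among WT and 0.543, 1.42 and 1.88 CPM among Pparg-/-epi animals. WT mice 1 and 2 were the highest of all mice, as they were for Pla2g2e. The log2 fold change was -0.37 (SE 0.54, adjusted p = 0.710), and it was 0.22 without WT mouse 2 and 0.79 (adjusted p = 0.170) without WT mice 1 and 2. Macrophage markers, all 10 of them listed and none altered, summed to 417 CPM in WT mouse 1 and 833 CPM in WT mouse 2, against 95.2 to 210 CPM in the other WT mice and 261 to 481 CPM in Pparg-/-epi mice. Their part in the Ptafr counts was not tested. The spread among WT mice was wide, with a coefficient of variation of 94.1%, against 44.3% among Pparg-/-epi mice, and a change in the receptor was not shown.

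**Figure D3:**
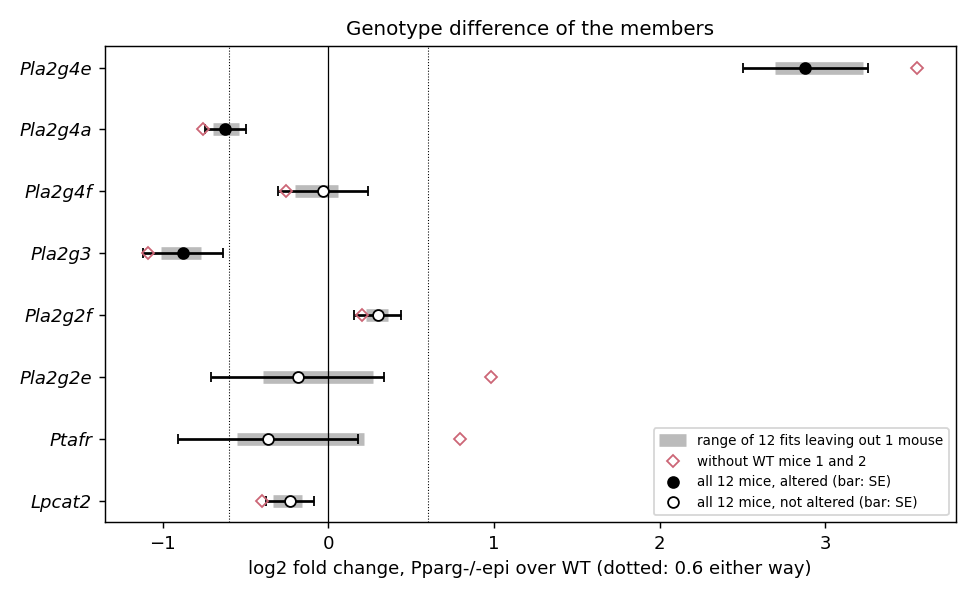
Log2 fold change of Pparg-/-epi over WT for each member (circles with SE, filled where altered, 12 mice), the range over 12 fits that each leave out 1 mouse (grey bars) and the value without WT mice 1 and 2 (diamonds), with dotted lines at 0.6 either way. Pla2g4e stays between 2.70 and 3.23 in the grey bar, whereas Pla2g2e and Ptafr move from below 0 to 0.99 and 0.79 without WT mice 1 and 2.

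The members were then ordered by level per kilobase of exon, since counts alone favour long transcripts. Pla2g2f led in both groups, with 311 ± 42.3 CPM per kb in WT and 383 ± 70.6 CPM per kb in Pparg-/-epi mice (SD, n = 6 each), 69.9% and 75.4% of the summed level of the 8 members. Pla2g4f followed with 64.6 ± 18.7 and 63.1 ± 23.9 CPM per kb. In WT mice the order went on with Lpcat2 (29.6 ± 5.64), Pla2g4a (20.6 ± 3.72), Pla2g3 (13.3 ± 3.95), Pla2g2e (4.16 ± 3.68), Pla2g4e (1.58 ± 1.02) and Ptafr (0.867 ± 0.817 CPM per kb). The ranges of neighbours in the WT order overlapped from Pla2g4f downwards, and only Pla2g2f stood clear of the next gene. Within single WT mice, however, each gene was above the next in 6 of 6, except Pla2g3 over Pla2g2e, in 5 of 6. In Pparg-/-epi mice Pla2g4e held the fifth place, at 11.7 ± 2.69 CPM per kb, against the seventh in WT. It then overlapped Pla2g4a (13.3 ± 1.496), which was the higher of the pair in 3 of 6 mice, and Pla2g3 (7.28 ± 2.29 CPM per kb), which was the lower in 5 of 6. Pla2g4e went from 0.388% to 2.41% of the summed level of the members. Pla2g4a went from 4.64% to 2.71%.

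**Figure D4:**
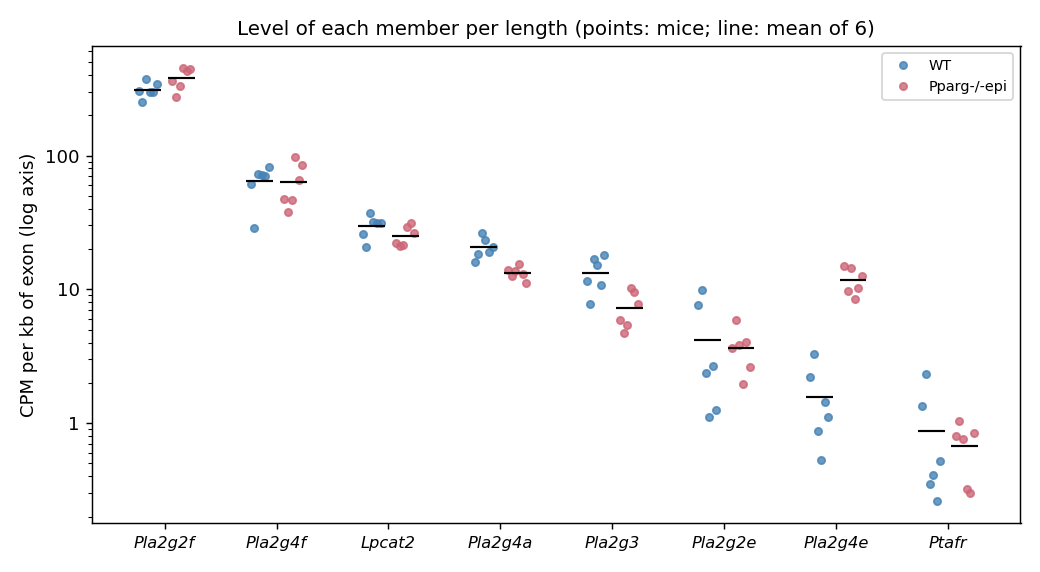
Level of each member per kilobase of exon (log axis) in each of 6 WT and 6 Pparg-/-epi mice, with a line at the mean of each group and genes in the WT order. Pla2g2f is highest in both groups, and Pla2g4e moves from 1.58 to 11.7 CPM per kb, next to Pla2g4a at 13.3.

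Both sexes were represented, and the genotype difference of the members was compared between them. In females Pla2g4e ran from 2.35 to 14.8 CPM in 3 WT mice and from 43.7 to 67.2 CPM in 4 Pparg-/-epi mice. In males it ran from 3.94 to 9.97 CPM in 3 WT mice and from 37.9 to 56.3 CPM in 2 Pparg-/-epi mice. The groups were apart in either sex. Its genotype difference in males minus that in females was -0.12 on the log2 scale (SE 0.78, interaction term in edgeR, adjusted p = 0.988). For the 8 members this interaction had adjusted p from 0.895 to 0.990 and none had an unadjusted p under 0.05. Over all genes 0 had an adjusted p under 0.05 in edgeR and 741 an unadjusted p under 0.05. With 2 male Pparg-/-epi mice the standard errors were wide, up to 1.18 for Ptafr, so that the members were not shown to respond alike in the sexes.

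For each altered member the 3 most alike genes were found by the correlation of log2 CPM after the mean of each genotype was removed, among 13800 genes with a mean of at least 1 CPM. These values describe the highest of many correlations over 12 libraries and carry no p. Pla2g4e varied most like Serinc2 (Pearson r = 0.933, Spearman rho = 0.818), Zfp623 (r = 0.928, rho = 0.965) and Enah (r = 0.924, rho = 0.895). Without WT mice 2 and 4, the farthest from the median, r was 0.785, 0.930 and 0.839. Serinc2 and Enah were themselves altered and higher, with log2 fold changes of 1.53 (adjusted p = 0.00860) and 1.24 (adjusted p = 0.00486). Pla2g3 varied most like Plekhn1 (r = 0.990, rho = 0.986), Zfp692 (r = 0.979, rho = 0.965) and Abca7 (r = 0.972, rho = 0.986), none of which was altered, and r was 0.991, 0.969 and 0.950 without WT mouse 2 and Pparg-/-epi mouse 8. Pla2g4a varied most like Car13 (r = 0.936, rho = 0.944), 4833423E24Rik (r = 0.910, rho = 0.853) and Nt5dc1 (r = 0.894, rho = 0.888), with r of 0.875, 0.829 and 0.901 without WT mice 1 and 3. Of these, 4833423E24Rik was altered and lower, at -0.69 (adjusted p = 0.0498), and the other two were not altered.

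The other phospholipases A2 were examined next. Of 14 genes, 9 were listed and 3 altered (33.3%, against 10.3% of all genes), 2 higher and 1 lower, with a median log2 fold change of -0.14. Besides Pla2g2d, Pla2g4c, a group IV gene for an enzyme without the calcium-binding domain, was higher, at 0.98 (SE 0.28, adjusted p = 0.0320), from 0.403 to 0.743 CPM for WT and from 0.849 to 1.63 CPM for Pparg-/-epi mice. These levels stand on few counts, between 6 and 20 per library. Pla2g16, the gene for the phospholipase of adipose tissue, was lower, at -1.53 (SE 0.29, adjusted p = 0.00439), with 43.3 to 133 CPM for WT and 19.5 to 44.3 CPM for Pparg-/-epi mice. The count of 3 fell to 1 without WT mouse 4 or 5 or Pparg-/-epi mouse 7 or 9. It stayed at 3 only without WT mouse 2, and was 2 without any other single mouse.

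Genes that make, break or supply PAF and its ether-linked precursors were all listed, 15 of 15, and none was altered (edgeR, 1 with an adjusted p under 0.05 at any fold). Their median log2 fold change was 0.08, and 10.3% of all genes were altered. That 1 gene was Gnpat, for the first enzyme of ether lipid synthesis in peroxisomes, at -0.36 (SE 0.11, adjusted p = 0.0397), and Pla2g7, for the plasma enzyme that degrades PAF, was at 0.95 (SE 0.32, adjusted p = 0.0637). Both were named after their values were seen. The count of 0 became 1 without WT mouse 2 or Pparg-/-epi mouse 10, and 3 without WT mice 1 and 2. Of the 9 genes of lysophospholipid reacylation, the step that rebuilds phospholipids, 8 were listed and none was altered, with a median of -0.10. Mboat7, which puts arachidonate into phosphatidylinositol, was at -0.49 (SE 0.11, adjusted p = 0.00983) and is named after its values were seen. Without WT mouse 2, 4 of these genes were altered.

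Among the 12 listed lysophosphatidic acid enzymes and lysophospholipid receptors, 1 was altered (8.33%, against 10.3% of all genes) and the median was 0.09. Gpr132, a receptor reported to respond to lysophospholipids and oxidized fatty acids, was higher, at 1.23 (SE 0.31, adjusted p = 0.0195), with 1.51 to 4.72 CPM for WT and 4.97 to 11.9 CPM for Pparg-/-epi mice. Of 19 genes that oxygenate arachidonate, 18 were listed and 5 altered (27.8%, against 10.3% of all genes), 1 higher and 4 lower, while their median was 0.16. Alox12e, an epidermal lipoxygenase, was higher at 0.61 (SE 0.19, adjusted p = 0.0447). Hpgds, for a prostaglandin D synthase, was lower at -1.60 (SE 0.27, adjusted p = 0.00213), with 138 to 319 CPM for WT and 47.3 to 111 CPM for Pparg-/-epi mice. Ltc4s, for the enzyme that makes leukotriene C, was lower at -1.54 (SE 0.31, adjusted p = 0.00544), and Alox12, for a further lipoxygenase, at -1.23 (SE 0.29, adjusted p = 0.0140). The summed mast cell markers given above were higher in the same Pparg-/-epi libraries in which Hpgds and Ltc4s were lower. The part of mast cells or of other cells in the levels of these 2 genes was not tested.

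**Figure D5:**
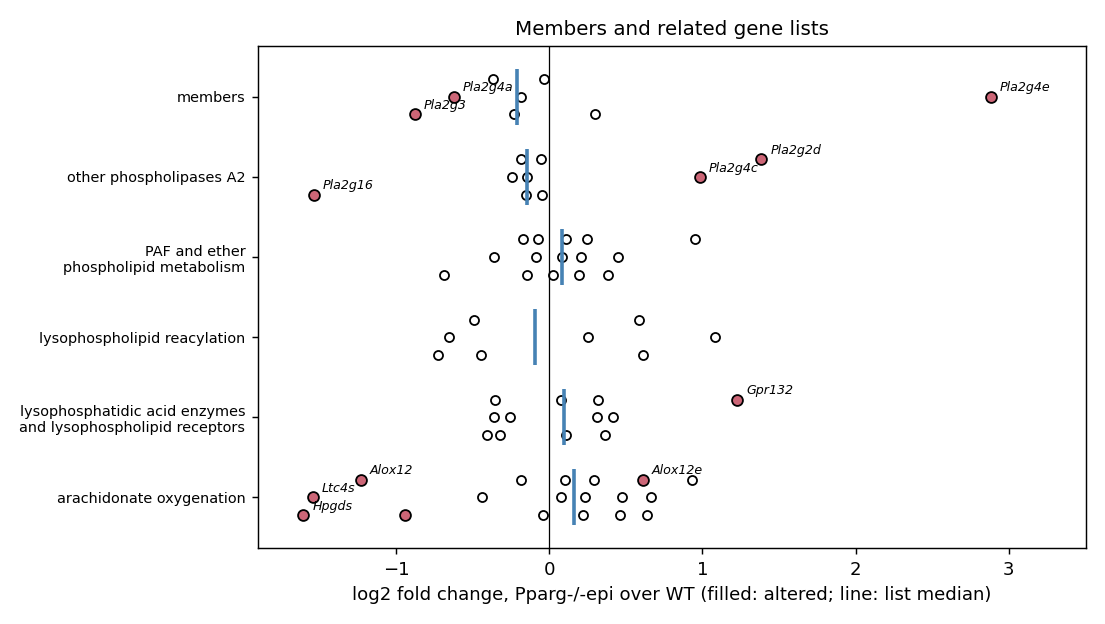
Log2 fold change of Pparg-/-epi over WT for each listed member and each listed gene of 5 related lists (points, filled where altered, up to 3 named in each direction, blue line at the list median, n = 6 mice each). Pla2g4e at 2.88 is the highest point, and the lists of PAF and ether phospholipid metabolism and of lysophospholipid reacylation hold no filled point.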

How the data were processed

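Epidermal scrapings of 12 mice were sequenced as mRNA, paired-end, with 1 library per mouse. Per the labels and the methods, the authors mapped the reads to mm10 with STAR 2.5.2b, dropped those of low quality or with several map positions, and assigned the rest to genes with featureCounts (Subread 1.5.1). The deposited values are raw counts, not normalized. The table had 17333 rows, of which 2800 were blank and left out, and each of the 14533 listed genes exceeded 0.5 CPM in at least 6 libraries, so no further filter was applied. A gene without a row may have been below that filter. Libraries held 10120840 to 16947632 (WT) and 11272135 to 18851255 (Pparg-/-epi) counts, and 3 counts were worth 0.159 to 0.296 CPM before TMM scaling. No 2 libraries were identical.

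Groups came from the sample titles. Columns of 2 Pparg-/-epi libraries were matched to mice through the run information of the supplement. Counts were TMM-scaled and compared with the quasi-likelihood test of edgeR 4.0.16 (R 4.3.3), with genotype only and Benjamini-Hochberg adjustment over all genes. The alternatives were the study's likelihood ratio test, DESeq2 1.42.0, total-count scaling and a filter of 10 counts in every library. Sex, RIN, age or 2 blocks of breeding numbers (192, 195 and 217 against 222, 225 and 226) were also used as a covariate. Single sexes and leaving out each mouse were further alternatives. A fit without WT mice 1 and 2 was added after seeing the data. The likeness measure used log2 CPM with a prior count of 2. The scripts were tested on simulated data, with 6 against 6 libraries. There the main test found 57% of the 2-fold and 84% of the 4-fold changes. A gene called not altered may therefore still differ. Promoter windows came from RefSeq for 7 of the 8 listed members, and levels per kb used the exonic length in the deposited table.

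Named genes were all listed members, up to 3 altered genes in each direction per related list, the 3 genes most like each altered member, Pparg and 4 keratins. Marker lists were given by counts and summed CPM where a member moved with them. The members and lists were chosen with earlier results of these data known. The p-values set the genotype difference against the spread between mice, which were treated as independent. As 4 WT mice shared breeding number 226, differences between breeding numbers are part of the genotype comparison.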

Additional observations from a re-analysis of the deposited data

How the results depend on the processing

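Pla2g4e kept its direction under all alternatives run, and lost its call with male mice only (2.76, adjusted p = 0.0682). None of these alternatives separated breeding number 226 from genotype. Pla2g4a was no longer called with RIN as a covariate (-0.59), with breeding numbers as 2 blocks (-0.57) or in males (-0.62, adjusted p = 0.378), and Pla2g3 in females (-1.10, adjusted p = 0.110) or males (-0.54, adjusted p = 0.415). Members that were not called changed sign: Pla2g4f with RIN (0.24), breeding blocks (0.089) and males (0.40), Pla2g2e with age (0.25), females (0.10) and without WT mice 1 and 2 (0.99), Ptafr with age (0.039, with the ages of the labels) and without WT mice 1 and 2 (0.79). The cause was not tested. Fits leaving out 1 mouse each gave log2 fold changes of 2.70 to 3.23 for Pla2g4e, -0.70 to -0.54 for Pla2g4a, -1.01 to -0.77 for Pla2g3, -0.40 to 0.27 for Pla2g2e, -0.20 to 0.060 for Pla2g4f, -0.55 to 0.22 for Ptafr, 0.23 to 0.36 for Pla2g2f and -0.33 to -0.16 for Lpcat2. The altered members numbered 1 to 3 in those fits, with 1 without WT mouse 3 or 4, and 0 in males.

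Over all genes 1493 were altered, 651 in females, 18 in males, where fewer mice were compared, 1116 to 2249 when 1 mouse was left out, the highest without WT mouse 2, and 2968 (20.4%) without WT mice 1 and 2. Other phospholipases A2 numbered 1 in females, 0 in males and 1 to 3 leaving out 1 mouse. PAF and ether lipid genes numbered 1 with the likelihood ratio test, 1 with DESeq2, 2 with RIN, 3 without WT mice 1 and 2 and 0 to 1 leaving out 1 mouse. Reacylation genes numbered 1 with DESeq2, 1 with RIN, 4 without WT mice 1 and 2 and 0 to 4 leaving out 1 mouse. Lysophosphatidic acid and receptor genes numbered 0 in females, 0 in males and 3 without WT mice 1 and 2, and arachidonate genes 0 in males. Ptafr was dropped by the filter of 10 counts in every library. No paired analysis was possible because the groups share no replicate numbers and a single breeding number (222, 1 mouse in each group). Ptafr and Pla2g2e stood on 6 to 80 and 14 to 158 counts per library, and their coefficients of variation among WT mice were 94.1% and 88.5%.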

Other observations

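Because Pla2g4e makes precursors of N-acylethanolamines, a family of fatty acid amides that includes ligands of PPAR alpha and of cannabinoid receptors, 16 genes of that route were looked up after the values of Pla2g4e were seen. Of these, 11 were listed and 4 altered, 1 higher and 3 lower, against 10.3% of all genes, with a median log2 fold change of 0.03. Ppara, the nuclear receptor for such amides, was lower in Pparg-/-epi mice. It ran from 28.3 to 41.6 CPM in WT and from 10.4 to 16.2 CPM in Pparg-/-epi mice, with no overlap and a log2 fold change of -1.31 (SE 0.14, edgeR quasi-likelihood test, adjusted p = 0.000167). Cnr2, a cannabinoid receptor, was lower at -0.95 (SE 0.26, adjusted p = 0.0267), with overlapping groups. Gpr55, a lysophosphatidylinositol receptor, was higher at 1.27 (SE 0.31, adjusted p = 0.0166), from 0.316 to 1.28 CPM in WT mice and from 1.497 to 1.98 CPM in Pparg-/-epi mice. Pla2g16, whose product can also act as an N-acyltransferase, is the remaining altered gene of this set. The phospholipase D that releases the amides, Napepld, was at 0.29 (SE 0.29, adjusted p = 0.552), and the hydrolases Faah and Naaa were at 0.03 (SE 0.16, adjusted p = 0.933) and 0.48 (SE 0.23, adjusted p = 0.194). The set was chosen after seeing values, and no test was made of it as a set.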
